A study of Mus musculus with 6 samples.

Results

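The unfolded protein response and the integrated stress response were described here through 10 genes: the sensors Eif2ak3, Ern1 and Atf6, the transcription factors Atf4, Ddit3 and Xbp1, the target genes Chac1, Trib3 and Asns, and the chaperone gene Hspa5. They were taken from the deposited count table by gene symbol and are 10 of its 47728 genes. All 10 passed the filter on low counts and were tested within the fit over all 17074 genes kept by it.

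The unfolded protein response is the reaction of a cell to misfolded protein in the endoplasmic reticulum (ER). The sensors PERK (Eif2ak3), IRE1-alpha (Ern1) and ATF6 span the ER membrane and are held inactive by the chaperone BiP (Hspa5). PERK and its sister kinases phosphorylate the translation initiation factor eIF2, which slows protein synthesis but favours translation of ATF4, and this shared step is called the integrated stress response. IRE1-alpha splices the mRNA of XBP1, and the processed forms of XBP1 and ATF6 switch on chaperone and degradation genes. In brains with amyloid, PERK and eIF2 phosphorylation have been studied as links between protein aggregates and impaired translation.

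RNA was sequenced from flash-frozen cerebral cortex of FAD5x mice (3 libraries) and of wild-type C57BL/6 mice as Control (3 libraries). FAD5x is labelled as an Alzheimer model. The line commonly known by this name carries transgenes under the neuronal Thy1 promoter. The labels do not list the alleles, give no age, sex or drug treatment, and do not say whether libraries came from separate animals, so that p-values cover only how these libraries vary, and that variation may be technical. Each library held 17363946 to 24137936 counts.

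FAD5x replicates 1 and 2 carry related library names. Their counts differed by more (chi-square of 56.8 per degree of freedom) than those of FAD5x replicates 1 and 3 (36.9). Such a difference cannot tell whether libraries came from the same animal. All libraries were treated as distinct. Xist, the transcript of the inactive X chromosome, had 10346 to 22631 counts in all libraries but Control replicate 1, where it had 3. The Y-linked genes Ddx3y, Uty, Eif2s3y and Kdm5d summed to 3124 counts in Control replicate 1 and to 0 to 9 counts in the other libraries, so that the Control group mixed libraries that differ as the sexes do. Counts over all genes of chromosome Y were 8486 to 11469 in FAD5x and 6981, 5679 and 5995 in Control replicates 1, 2 and 3. The excitatory cortical marker Slc17a7 stood at 1047 to 1676 CPM in FAD5x and 1016 to 1505 CPM in Control. FAD5x replicate 1 stood apart in striatal neuron markers, with a summed level of 915 CPM, against 161 and 201 CPM in the other FAD5x libraries and 99.0 to 128 CPM in Control. Levels are given as scaled CPM (CPM stands for counts-per-million; library totals were scaled by trimmed means). A log2 fold change is that of FAD5x over Control and is followed by its standard error (SE).

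None of the 10 genes passed the test. At an adjusted p below 0.05 over all genes, edgeR's quasi-likelihood test called 0 of 10, against 3.15% of all tested genes (1.76% higher and 1.39% lower). At an unadjusted p below 0.05 stood 5 of the 10, namely 4 higher and 1 lower, against 21.3% of all tested genes (11.2% higher and 10.1% lower). Limma-voom called 0 and DESeq2 called 2, Ddit3 as higher and Hspa5 as lower. DESeq2 also called more over all genes, 763 higher and 722 lower, against 300 and 237 with edgeR. The 10 genes fell on both sides of 0. Every FAD5x library was above every Control library for Atf4, Ddit3, Chac1 and Trib3, and every FAD5x library was below every Control library for Hspa5. Such separation of the libraries was seen in 5 of the 10, against 27.4% of all tested genes (14.1% higher and 13.2% lower). The 10 genes were chosen with earlier results of these data known, so these shares are a description only. The sensors, Xbp1 and Asns had overlapping libraries.

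**Figure D1:**
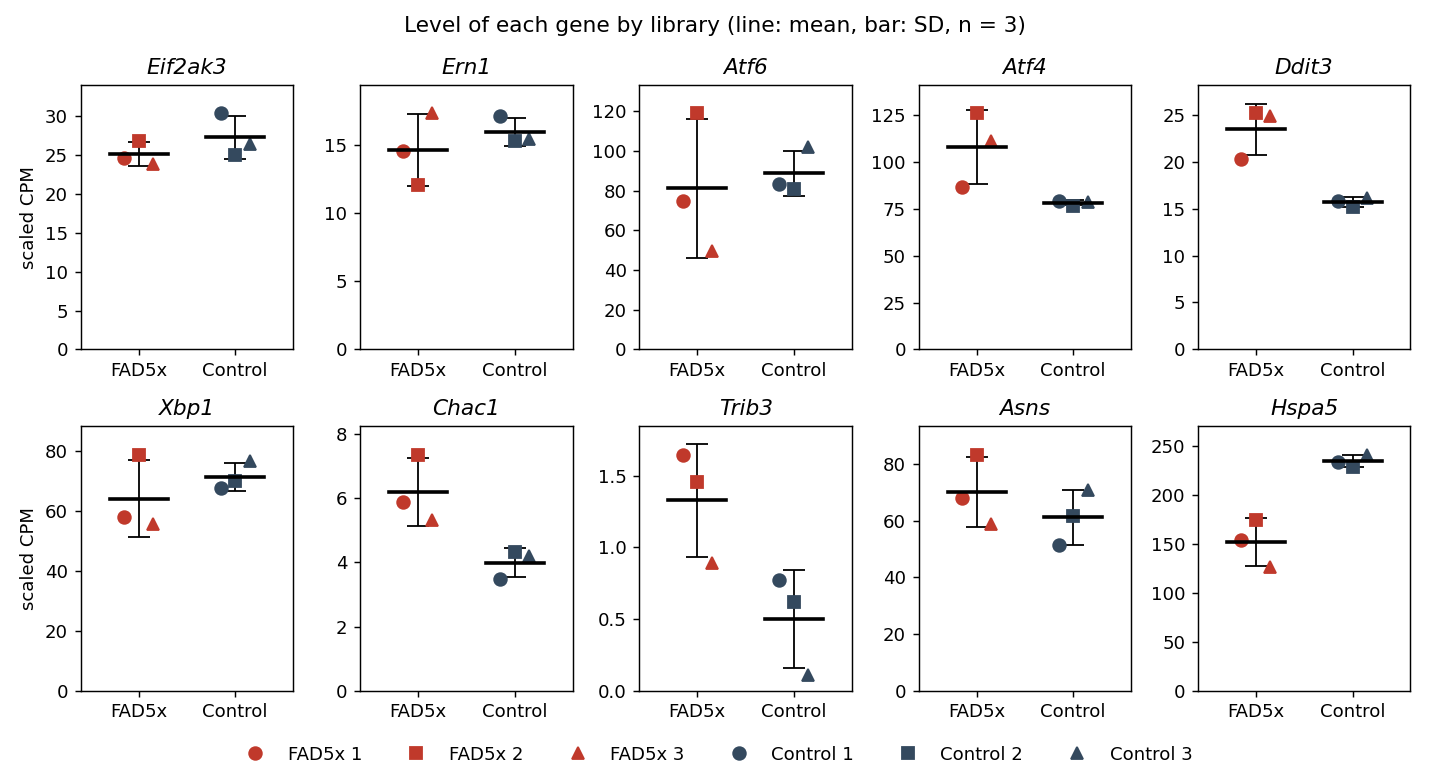
Level of each gene in each library, in scaled CPM on axes that start at 0, with FAD5x left of Control. Points are libraries, lines are means and bars are SD (n = 3 per group). The Control points of Atf4, Ddit3 and Hspa5 lie close together (SD 1.33, 0.513 and 6.39 CPM), and the FAD5x points of these genes lie apart from them.

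Eif2ak3 encodes PERK, the ER kinase of eIF2. Replicates 1, 2 and 3, an order kept for every gene, had 24.7, 26.8 and 23.9 CPM among the FAD5x libraries and 30.4, 25.1 and 26.4 CPM among the Control libraries. The groups overlapped, and the log2 fold change of -0.12 ± 0.13 had a 95% interval of -0.42 to 0.18 (adjusted p = 0.655). Of its 6026 exonic bases 485 lie under an antisense gene, Gm43292, in the annotation used. The sources used here do not give whether counting used strand, so reads there cannot be assigned.

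Ern1 encodes IRE1-alpha, the kinase and endonuclease that cuts the Xbp1 mRNA. Its level was 14.5, 12.02 and 17.3 CPM among FAD5x libraries, against 17.1, 15.2 and 15.4 CPM among Control libraries. The FAD5x libraries held both the lowest and the highest value of all 6 libraries, and the log2 fold change was -0.12 ± 0.17 (95% interval -0.51 to 0.27, adjusted p = 0.724).

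Atf6 encodes the membrane-bound transcription factor that is cut in the Golgi under ER stress. It was the most scattered of the sensors, at 74.7, 119 and 49.8 CPM among FAD5x libraries, against 83.6, 81.0 and 102 CPM among Control libraries. FAD5x replicate 2 was above and FAD5x replicates 1 and 3 below every Control library, and the log2 fold change was -0.13 ± 0.29 (95% interval -0.79 to 0.53, adjusted p = 0.839). Without FAD5x replicate 3 the value was 0.13, and without FAD5x replicate 2 it was -0.50.

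Atf4 encodes the transcription factor at the centre of the integrated stress response. Its level was 86.9, 126 and 111 CPM among FAD5x libraries, against 79.4, 76.8 and 78.5 CPM among Control libraries. All FAD5x libraries were higher, by the least in replicate 1, and the mean was 1.38 times that of Control (log2 0.47 ± 0.15, 95% interval 0.12 to 0.81, adjusted p = 0.135). ATF4 is regulated largely at translation, which these counts do not measure.

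Ddit3 encodes CHOP, a transcription factor that ATF4 induces and that takes part in stress-induced cell death. It stood at 20.2, 25.1 and 24.9 CPM among FAD5x libraries, against 15.9, 15.1 and 16.1 CPM among Control libraries. The gap between the lowest FAD5x and the highest Control library was wider than the spread of the Control libraries, and the log2 fold change was 0.58 ± 0.14, or 1.49-fold (95% interval 0.25 to 0.90, adjusted p = 0.0682). DESeq2 called it (adjusted p = 0.0239), and over the 15 other fits tried the adjusted p was 0.0239 to 0.222. Ddit3 overlaps the methionyl-tRNA synthetase gene Mars1 (listed as Mars) on the opposite strand, with 68 of its 1713 exonic bases shared in the annotation used. It also shares 105 bases with a second annotated Ddit3 gene on the same strand and 13 with Gm4189 on the opposite strand. Mars1 itself rose (below), and the part of shared reads in the Ddit3 value was not tested.

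Xbp1 encodes the transcription factor made active by IRE1-alpha. Its level was 57.7, 78.7 and 55.5 CPM among FAD5x libraries, against 67.5, 69.7 and 76.5 CPM among Control libraries. FAD5x replicates 1 and 3 were below and replicate 2 above all Control libraries, with a log2 fold change of -0.16 ± 0.16 (95% interval -0.51 to 0.20, adjusted p = 0.615). Counts per gene do not tell spliced from unspliced Xbp1.

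**Figure D2:**
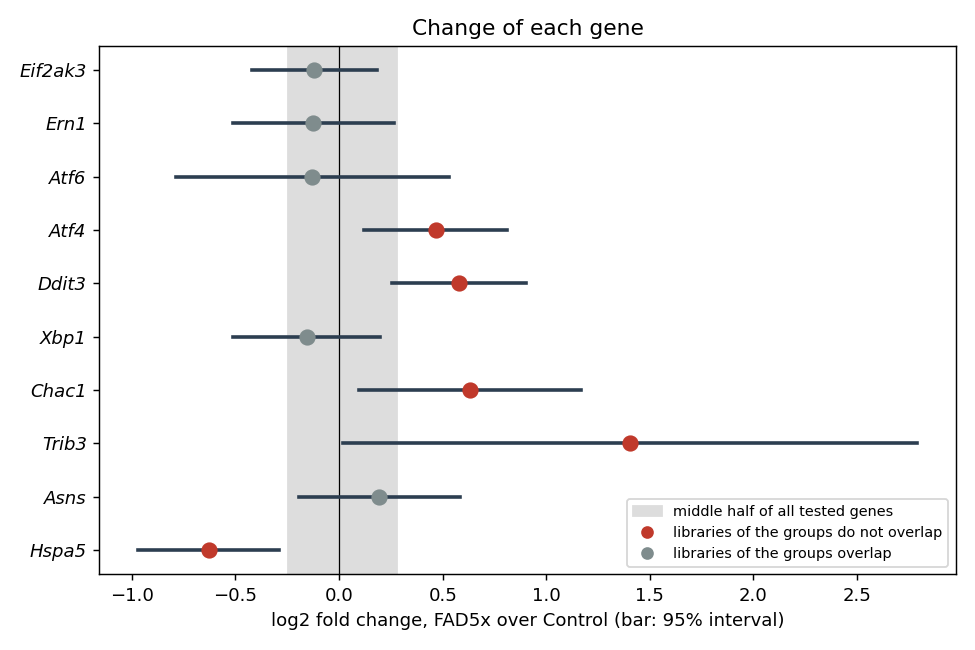
Log2 fold change of each gene, FAD5x over Control, with its 95% interval from the edgeR fit. The grey band spans the quartiles of all tested genes, -0.25 to 0.28, and red points mark genes whose FAD5x and Control libraries do not overlap. Atf4, Ddit3, Chac1 and Trib3 lie to the right of the band and Hspa5 to its left.

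Chac1 encodes an enzyme that breaks down glutathione and is induced by ATF4 and CHOP. Its level was 5.89, 7.36 and 5.33 CPM in FAD5x, from 143, 152 and 102 counts, and 3.47, 4.33 and 4.19 CPM in Control, from 63, 77 and 75 counts. All FAD5x libraries were higher, and the mean ratio was 1.55-fold (log2 0.63 ± 0.23, 95% interval 0.098 to 1.17, adjusted p = 0.173).

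Trib3 encodes a pseudokinase that ATF4 and CHOP induce and that acts back on ATF4. It was the gene of fewest counts, with 40, 30 and 17 counts in FAD5x (1.65, 1.45 and 0.888 CPM) and 14, 11 and 2 counts in Control (0.771, 0.618 and 0.112 CPM). All FAD5x libraries were higher, but FAD5x replicate 3 was only just above Control replicate 1. The log2 fold change of 1.40 ± 0.61 had a 95% interval of 0.021 to 2.79 (adjusted p = 0.229). The size rests in part on Control replicate 3: without it the log2 fold change was 0.94.

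Asns encodes asparagine synthetase, an enzyme that ATF4 induces when amino acids are short. Its level was 68.0, 83.3 and 58.7 CPM among FAD5x libraries, against 51.3, 61.5 and 70.7 CPM among Control libraries. The groups overlapped, unlike those of Chac1 and Trib3, and the log2 fold change was 0.19 ± 0.17 (95% interval -0.19 to 0.58, adjusted p = 0.561). Whether Asns differed from Chac1 or Trib3 in its change was not tested.

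Hspa5 encodes BiP, the main Hsp70 chaperone of the ER and a target of ATF6 and XBP1. Its level was 154, 175 and 126 CPM among FAD5x libraries, against 233, 229 and 241 CPM among Control libraries. Every FAD5x library was below every Control library, the FAD5x mean was 64.7% of the Control mean, and the log2 fold change was -0.63 ± 0.15 (95% interval -0.97 to -0.29). It missed the threshold in the test (adjusted p = 0.0612), and so did limma-voom (0.0614). DESeq2 called it lower (0.00332), as did fits on library totals only (0.0311), with no filter on low counts (0.0265) and without FAD5x replicate 2 (0.0178). Over all genes the main test called 300 higher and 237 lower. These counts were 763 and 722 with DESeq2, 230 and 202 on library totals only and 574 and 489 with no filter. Without FAD5x replicate 2 they were 604 and 385. Over the 15 other fits the log2 fold change was -0.75 to -0.51 and the adjusted p 0.00332 to 0.205.

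**Figure D3:**
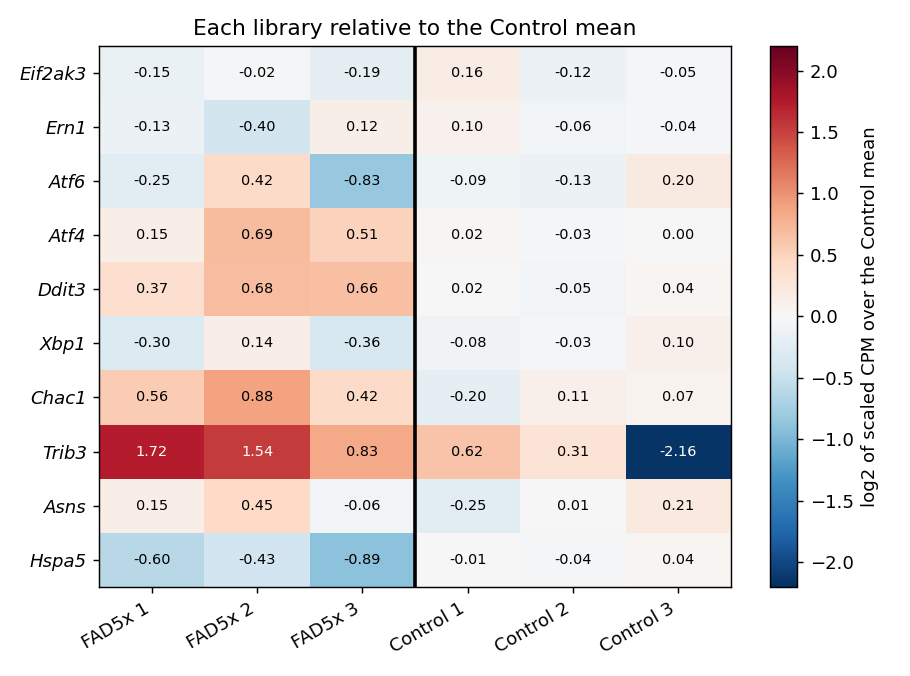
Log2 of the scaled CPM of each library over the Control mean of that gene, FAD5x libraries left of the line and Control libraries right of it. Hspa5 reads -0.60, -0.43 and -0.89 in FAD5x replicates 1, 2 and 3, whereas Ddit3 reads 0.37, 0.68 and 0.66. The dark Trib3 cell of Control replicate 3 stands for 2 counts.

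Atf4 and Hspa5 were also set against each other within libraries, a pair chosen after their values were seen and so given as a description. The log2 ratio of Atf4 to Hspa5, relative to the Control mean, took the values 0.76, 1.11 and 1.40 among FAD5x libraries, against 0.028, 0.0091 and -0.037 among Control libraries. That of Ddit3 to Hspa5 was 0.97, 1.11 and 1.56 among FAD5x libraries, against 0.022, -0.018 and -0.0042 among Control libraries. In both ratios every FAD5x library was above every Control library, which follows from the separation of each gene alone and adds no support. The ratios of Atf4 to Xbp1 (0.45, 0.54 and 0.87 among FAD5x libraries), Atf6 (0.39, 0.26 and 1.33) and Eif2ak3 (0.29, 0.71 and 0.70) also separated from Control. Those of Atf4 to Ddit3 and to Asns overlapped. Such ratios do not depend on the scaling of the library.

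Levels of different genes were compared per kilobase (kb) of exonic length. This length joins all annotated exons of a gene and may differ from that of the transcripts present, so the order of genes depends on it. In FAD5x, Atf4 had 45.8 ± 8.39 and Hspa5 35.9 ± 5.75 CPM per kb (SD, n = 3), with overlapping ranges. Within each FAD5x library Atf4 was above Hspa5, at 36.9, 53.5 and 47.2 against 36.5, 41.3 and 29.8 CPM per kb. Before division by length the order was the reverse, with Atf4 at 86.9, 126 and 111 and Hspa5 at 154, 175 and 126 CPM. In Control, Hspa5 had 55.4 ± 1.51 and Atf4 33.2 ± 0.565 CPM per kb, with no overlap. Asns and Xbp1 followed in both groups, at 25.6 ± 4.54 and 19.7 ± 3.94 CPM per kb in FAD5x and 22.4 ± 3.55 and 21.9 ± 1.45 in Control. Asns was above Xbp1 within each FAD5x library (24.9, 30.5 and 21.5 against 17.8, 24.2 and 17.1) and in Control replicates 2 and 3, but not in Control replicate 1. Ddit3 and Atf6 had 13.7 ± 1.61 and 8.80 ± 3.80 CPM per kb in FAD5x and 9.16 ± 0.300 and 9.62 ± 1.23 in Control, with overlapping ranges in each group. Ddit3 was above Atf6 within each FAD5x library (11.8, 14.7 and 14.5 against 8.09, 12.9 and 5.40) and in Control replicates 1 and 2, but not in Control replicate 3. Eif2ak3, Chac1, Ern1 and Trib3 came last in both groups, with means of 4.17, 3.79, 1.79 and 0.626 CPM per kb in FAD5x and 4.53, 2.44, 1.95 and 0.235 in Control.

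The promoters of the genes were searched for short elements known to bind the factors of this pathway. RefSeq gave a promoter, from 250 bases before to 50 bases after the start of the gene, for 9 of the 10 genes. The search covered both strands. The C/EBP-ATF element TGATGNAA, to which ATF4 and its partners bind, was in 3 of 9 promoters, against 3.97% of all 32851 promoters in the table. The ER stress element, CCAAT and CCACG with 9 bases between them, binds ATF6 and was in 1 of 9, against 0.119% of all. The palindromic cAMP element TGACGTCA and the UPR element TGACGTGG were in 0 of 9, against 1.79% and 0.676% of all. CCAAT alone was in 5 of 9, against 37.4% of all. CCACG alone was in 5 of 9, against 32.8% of all, and its letters overlap both the ER stress element and the opposite strand of the UPR element. The 4 promoters that hold the C/EBP-ATF or the ER stress element are printed 5′ to 3′ on the strand of the gene, and capitals mark the element. FAD5x libraries were above Control for Chac1 and Trib3 and below it for Hspa5, and the groups overlapped for Asns. The build is GRCm38.p6, whereas the counts use GRCm39, per the submitters' processing notes.
Chac1, chr2:119350992-119351291, plus strand: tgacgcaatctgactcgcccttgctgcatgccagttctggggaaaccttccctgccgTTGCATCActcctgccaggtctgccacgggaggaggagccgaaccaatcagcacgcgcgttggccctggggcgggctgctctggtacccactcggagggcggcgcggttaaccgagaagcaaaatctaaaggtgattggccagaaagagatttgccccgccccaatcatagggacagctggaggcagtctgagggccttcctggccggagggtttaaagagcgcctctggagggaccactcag
Trib3, chr2:152344011-152344310, minus strand: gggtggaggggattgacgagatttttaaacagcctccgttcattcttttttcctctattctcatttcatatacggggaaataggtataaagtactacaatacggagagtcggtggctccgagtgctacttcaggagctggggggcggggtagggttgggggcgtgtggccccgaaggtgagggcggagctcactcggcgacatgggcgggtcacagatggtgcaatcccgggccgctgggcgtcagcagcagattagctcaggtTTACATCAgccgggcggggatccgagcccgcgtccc
Asns, chr6:7693160-7693459, minus strand: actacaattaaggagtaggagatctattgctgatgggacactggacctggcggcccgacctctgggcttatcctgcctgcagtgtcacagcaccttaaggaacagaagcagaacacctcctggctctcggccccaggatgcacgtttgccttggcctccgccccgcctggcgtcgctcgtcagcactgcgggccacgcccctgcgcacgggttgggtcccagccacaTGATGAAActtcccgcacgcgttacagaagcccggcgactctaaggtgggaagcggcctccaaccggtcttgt
Hspa5, chr2:34771840-34772139, plus strand: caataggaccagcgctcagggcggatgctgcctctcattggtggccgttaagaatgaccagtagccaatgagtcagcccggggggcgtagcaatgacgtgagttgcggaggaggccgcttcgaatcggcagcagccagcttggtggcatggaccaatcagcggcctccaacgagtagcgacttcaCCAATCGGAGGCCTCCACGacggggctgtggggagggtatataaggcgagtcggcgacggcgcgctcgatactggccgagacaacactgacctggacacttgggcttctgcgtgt

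In the Chac1 promoter the element began 193 bases before the start and lay on the opposite strand. In the Asns promoter it began 23 bases before the start on the strand of the gene. In the Trib3 promoter it lay on the opposite strand and its first printed base was base 15 of the transcript. Chac1 and Trib3 held the element and had FAD5x libraries above Control. Asns held it and had overlapping groups, and Atf4 and Ddit3 had FAD5x libraries above Control without it in this window. The ER stress element of Hspa5 began 65 bases before the start. A match is a string of letters in this window and was not tested for binding.

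Other genes of the pathway were read from 7 lists, and 4 of their 109 tested genes passed the test (3.67%), a share near the 3.15% of all tested genes. Among 13 aminoacyl-tRNA synthetase and tRNA export genes downstream of ATF4, Mars1, which charges methionine onto its tRNA, rose 1.50-fold (log2 0.58 ± 0.11, adjusted p = 0.0347). Its level was 61.4, 69.1 and 72.9 CPM among FAD5x libraries, against 46.1, 45.1 and 44.5 CPM among Control libraries. The groups did not overlap, 9 of the 13 genes were above 0, and the list median was 0.08, against 0.02 for all tested genes. The Mars1 call ended without FAD5x replicate 1 or 3 (adjusted p = 0.0564 and 0.0617) and without Control replicate 1, 2 or 3 (0.145, 0.142 and 0.131), and on library totals only (0.0665).

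Among 18 amino acid synthesis and transport genes, Slc7a5, the light chain of a large neutral amino acid transporter, fell 1.61-fold (log2 -0.69 ± 0.14, adjusted p = 0.0425). It stood at 65.0, 77.2 and 58.9 CPM among FAD5x libraries, against 111, 117 and 96.3 CPM among Control libraries. The groups did not overlap, and the list median was -0.16 with 11 of 18 genes below 0. Slc7a11, a cystine transporter that ATF4 induces, was singled out after its values were seen. It had 33.8, 32.7 and 20.6 CPM among FAD5x libraries, against 69.5, 84.1 and 46.7 CPM among Control libraries. The groups did not overlap, but it just missed the threshold (log2 -1.20 ± 0.26, adjusted p = 0.0502), whereas DESeq2 called it (0.000384). Slc3a2, the heavy chain that pairs with both transporters and also singled out afterwards, came to a log2 fold change of 0.11 ± 0.13 (adjusted p = 0.658). The Slc7a5 call ended without FAD5x replicate 1 or 3 (adjusted p = 0.108 and 0.0728) and without Control replicate 1, 2 or 3 (0.167, 0.163 and 0.0831). Slc7a5 is rich in brain endothelium, and the summed level of 6 endothelial markers was 145 to 193 CPM in FAD5x and 179 to 238 CPM in Control, with 0 of 6 called and 3 lower at an unadjusted p below 0.05, against 10.1% of all tested genes. Their part in the Slc7a5 value was not tested, and in bulk tissue fewer cells of a type and less RNA per cell cannot be told apart.

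Of 14 transcription factors and effectors downstream of ATF4, 12 were tested and 0 called by edgeR, limma-voom or DESeq2, with 2 at an unadjusted p below 0.05 (16.7%, against 21.3% of all tested genes). The list median was 0.06. Its 2 genes of highest level, the lipoprotein receptor gene Vldlr and the ER oxidase gene Ero1a, showed log2 fold changes of -0.13 ± 0.18 and -0.01 ± 0.14 (adjusted p = 0.727 and 0.977). The 2 genes with an unadjusted p below 0.05, named after their values were seen, were Cebpb, a bZIP factor (0.76 ± 0.24, adjusted p = 0.129), and Sesn2, a stress-induced inhibitor of mTOR signalling (0.40 ± 0.16, 0.191). Of 13 genes for eIF2 kinases, eIF2, eIF2B and eIF2 phosphatase subunits 0 were called by any of these tools and 0 had an unadjusted p below 0.05, with a median of 0.01. The eIF2 subunit genes Eif2s3x and Eif2s2, the highest of this list, showed log2 fold changes of 0.35 ± 0.17 and 0.014 ± 0.14 (adjusted p = 0.289 and 0.969). Eif2s3x lies on the X chromosome and had 153, 176 and 156 CPM among FAD5x libraries, against 97.1, 143 and 141 CPM among Control libraries. Without Control replicate 1, the library high in Ddx3y, Uty, Eif2s3y and Kdm5d, the log2 fold change of Eif2s3x was 0.19.

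**Figure D4:**
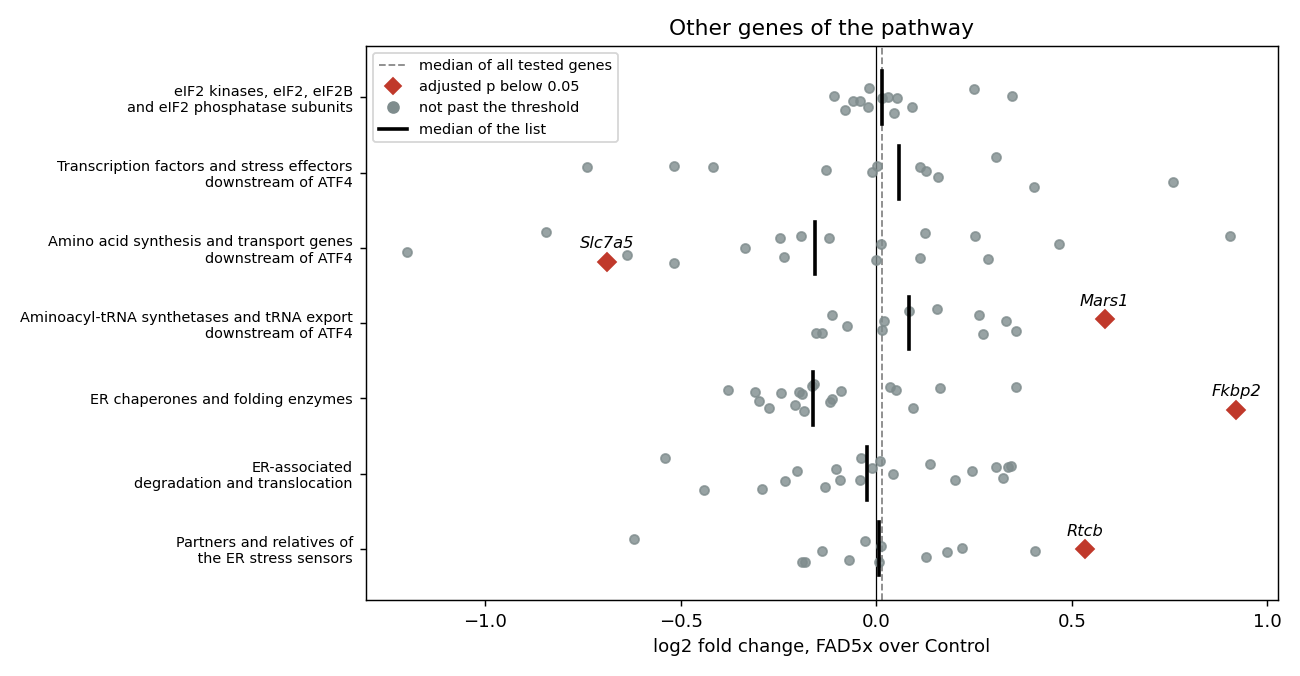
Log2 fold change, FAD5x over Control, of each tested gene in the 7 other lists of the pathway. Red diamonds mark genes with an adjusted p below 0.05, thick lines mark list medians and the dashed line marks the median of all tested genes. The ER chaperone list has a median of -0.16, with 14 of 20 genes below 0 and 6 above it, and its called gene Fkbp2 is at 0.92.

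ER chaperones and folding enzymes, the class of Hspa5, gave a median log2 fold change of -0.16 over 20 genes, with 14 below 0. A single gene was called, Fkbp2, an ER prolyl isomerase, and it rose 1.89-fold (log2 0.92 ± 0.13, adjusted p = 0.0118). It stood at 43.0, 51.9 and 53.1 CPM among FAD5x libraries, against 24.9, 26.7 and 26.5 CPM among Control libraries, opposite in sign to the list median. The Fkbp2 call ended without Control replicate 1, 2 or 3 (adjusted p = 0.0681, 0.0768 and 0.0528). Named after their values were seen, Hsp90b1, the ER Hsp90, came to a log2 fold change of -0.16 ± 0.13, Calr, a lectin chaperone, -0.27 ± 0.14, the disulfide isomerase Pdia4 -0.38 ± 0.12 and the glycoprotein folding sensor Uggt1 -0.31 ± 0.11. None of the 4 passed (adjusted p = 0.542, 0.319, 0.129 and 0.156), and each was closer to 0 than the value of Hspa5. All 4 were picked from the 14 genes below 0, whereas 6 genes of the list, Fkbp2 among them, were above 0.

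Of 20 genes for ER-associated degradation and translocation 0 were called by edgeR and by limma-voom and 1 by DESeq2, with 4 at an unadjusted p below 0.05 (20.0%, against 21.3% of all tested genes) and a median of -0.02. Vcp, named for its high level and encoding the ATPase that extracts proteins from the ER membrane, showed a log2 fold change of -0.09 ± 0.12 (adjusted p = 0.718). Of those 4 genes 3 were higher and 1 was lower in FAD5x. The lower one, Edem3, a mannosidase that marks misfolded glycoproteins and was named after its values were seen, came to a log2 fold change of -0.54 ± 0.13 (adjusted p = 0.0587). Among 13 tested partners and relatives of the sensors, Rtcb, the ligase that joins the Xbp1 exons after IRE1-alpha has cut them, rose 1.45-fold (log2 0.53 ± 0.12, adjusted p = 0.0494). Its level was 75.2, 89.5 and 80.2 CPM among FAD5x libraries, against 55.7, 58.3 and 55.2 CPM among Control libraries. This call was marginal: it ended without FAD5x replicate 1, 2 or 3 (adjusted p = 0.0749, 0.0524 and 0.0652), without Control replicate 1, 2 or 3 (0.197, 0.158 and 0.162), with limma-voom (0.0571) on library totals only (0.0555) and with DESeq2 size factors (0.0517).

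Markers of several other cell types differed in summed level along the same grouping of libraries. The summed level of 5 meningeal fibroblast markers was 9.93 to 40.2 CPM in FAD5x and 86.6 to 302 CPM in Control, with 1 of 5 called lower (20.0%, against 1.39% of all tested genes). At an unadjusted p below 0.05, 4 of the 5 were lower (80.0%, against 10.1% of all tested genes). That of 6 pericyte and smooth muscle markers was 109.5 to 145 CPM in FAD5x and 160.2 to 187 CPM in Control, with none called. The 9 microglia markers summed to 399 to 788 CPM in FAD5x and 241 to 380 CPM in Control, with 1 called higher (11.1%, against 1.76% of all tested genes). At an unadjusted p below 0.05, 7 of the 9 were higher (77.8%, against 11.2%). The 5 striatal neuron markers summed to 161 to 915 CPM in FAD5x and 99.0 to 128 CPM in Control, with none called, but 0 of 5 had libraries that did not overlap. Relative to the Control mean their median marker was at 3.57, -0.075 and -0.24 (log2) in FAD5x replicates 1, 2 and 3, so that replicate 1 alone was high. The sums of neuron, astrocyte, oligodendrocyte, precursor, endothelial, choroid plexus and red blood cell markers and of immediate early genes overlapped between the groups. Of 8 oligodendrocyte markers 1 was called higher (12.5%, against 1.76% of all tested genes). At an unadjusted p below 0.05, 3 of the 8 were higher (37.5%, against 11.2%), and all 8 had a log2 fold change above 0. Of 5 precursor markers 1 was called lower (20.0%, against 1.39% of all tested genes). None of the markers of any list was at 0 in a library. The part of these cells in the values of Hspa5, Atf4, Ddit3, Chac1 and Trib3 was not tested. Without FAD5x replicate 1, the library high in striatal markers, the log2 fold changes were -0.64 for Hspa5, 0.60 for Atf4, 0.67 for Ddit3, 0.67 for Chac1 and 1.22 for Trib3. Without Control replicate 1, the library high in Ddx3y, Uty, Eif2s3y and Kdm5d, they were -0.63, 0.48, 0.59, 0.54 and 1.86 for the same genes in this order. None of the 5 was called in either fit.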

How the data were processed

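Cortex RNA of 3 FAD5x and 3 Control samples was sequenced, 1 library per sample. The authors deposited raw counts per gene, with a column for each library. The build GRCm39 and the programs STAR 2.7.11b, featureCounts, cutadapt, limma and edgeR 3.38.4 are listed per the submitters' processing notes, without their roles. Library preparation, strandedness and the treatment of multi-mapping reads are not given in the sources used here. Of 47729 lines, 1 with a non-numeric cell was dropped.

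Genes were named by identifier from GENCODE M21, which matched 47223 and not 505, and exonic lengths and overlaps came from it. The test was the two-sided quasi-likelihood F-test of edgeR 4.0.16 (R 4.3.3), with filterByExpr and TMM scaling (trimmed means of M values), with genotype as the single factor, 17074 genes tested and a Benjamini-Hochberg adjusted p below 0.05 as threshold. SE and 95% intervals were derived from the F statistic. The steps were tested on simulated counts. Depth limits the genes of few counts most. Alternatives used limma 3.58.1, DESeq2 1.42.0, other scalings and filters, a replicate block and left-out libraries.

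The members and lists were chosen with earlier results of these data known. Of 195 list entries 14 were matched through an older symbol. All 10 members are named, then up to 4 called genes of each list or, with none called, the 2 of highest level, of which 1 gene is not reported here. A search with BLAST 2.17.0 for transcripts of other genes at 95% identity over 50% of the length of the shorter gave, among the members, a hit for Ddit3 alone, to a second annotated Ddit3 gene of 105 shared bases.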

Additional observations from a re-analysis of the deposited data

How the results depend on the processing

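The number of the 10 genes called was 2 with DESeq2, 1 on library totals only, 1 with no filter on low counts and 2 at an adjusted p below 0.1. It was 0 to 1 when single libraries were left out, and 0 with limma-voom, DESeq2 size factors, a filter at 1 CPM, protein-coding genes only and the replicate block. The 7 lists held 4 called genes, 6 with DESeq2, with no filter and at an adjusted p below 0.1, 3 with limma-voom and on library totals only, 1 with the replicate block (Slc7a11, adjusted p = 0.0383, which is none of the 4), 0 to 3 when single libraries were left out, and 2 without FAD5x replicate 2 and Control replicate 1, an alternative added once the data had been seen. Over all genes 300 were called higher and 237 lower. These counts became 763 and 722 with DESeq2, 574 and 489 with no filter, 682 and 569 at an adjusted p below 0.1, 36 and 36 with the replicate block, and 39 to 604 and 42 to 385 with single libraries left out. The highest counts of the last ranges, 604 and 385, came without FAD5x replicate 2, and the lowest, 39 and 42, came without Control replicate 2. Fewer libraries entered both fits, yet the counts rose in the former and fell in the latter. The cause of these changes was not tested.

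The replicate numbers pair no animals or batches in the labels. Libraries with the same number had correlated deviations of -0.04, -0.09 and -0.31, and none correlated best with its own number, so the block result is only a value. With the block the log2 fold changes of Atf4, Ddit3 and Hspa5 were 0.45, 0.57 and -0.64 (adjusted p = 0.265, 0.187 and 0.177).

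Directions turned for values near 0. With single libraries left out, the range was -0.26 to 0.0077 for Ern1, -0.50 to 0.13 for Atf6, -0.094 to 0.084 for Eif2s2 and -0.11 to 0.11 for Ero1a. On library totals only Eif2s2 was -0.0092. Leaving out single libraries moved Asns over 0.059 to 0.31. Without FAD5x replicate 2 and Control replicate 1, Atf6 was -0.56, Ero1a -0.17, Asns -0.065, Ern1 0.047 and Eif2s2 -0.16. Atf4, Ddit3, Chac1 and Trib3 stayed above 0 and Hspa5 below 0 in every setting that tested them.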
